A study of Homo sapiens with 60 samples.

Results

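The G1-S and DNA replication genes described here are 37 human genes, taken by symbol from a list of licensing factors, helicase parts, polymerases, nucleotide enzymes and G1-S regulators. All 37 were found among the 60675 genes of the count table. All 37 also passed the filter on low counts, which left 16644 genes for testing.

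RNA was sequenced from HepG2, a human liver cancer cell line. Cells had 24 h with a water extract at 20, 100 or 500 µg/mL, or with DMSO alone (vehicle). The single herbs were Menthae Herba and Saposhnikoviae Radix. Further water extracts were Soyo-san, Saengmaek-san, Okbyeongpung-san and Guibi-tang. Each of these 6 had 3 libraries a dose, beside 3 vehicle libraries. Soshiho-tang had 1 library at each dose and is described without a test. Sample labels give the vehicle as 0.1% DMSO, whereas the series design text gives 2%, and the DMSO content of the extract cultures is not given in the sources used here. The design text adds that more inhibitory extracts were given at lower concentrations, but each extract here is labelled 20, 100 and 500 µg/mL. Nothing in the labels says that replicates were separate cultures, so p-values measure the spread between these libraries, which may be technical. The descriptions give vehicle a code number of its own and put the extracts under code numbers 5 (both herbs), 6 (Saengmaek-san and Guibi-tang), 7 (Soyo-san and Okbyeongpung-san) and 8 (Soshiho-tang). Code number and treatment therefore cannot be told apart in any comparison with vehicle, whereas 500 against 20 µg/mL lies within 1 code number.

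Library totals ran between 20446542 and 32386486 counts over 60 libraries (median 25862356). All 8 hepatocyte lineage markers were present in each library, with a summed level of 35996 to 47995 CPM, counts scaled to a common library total. The fibroblast markers COL1A2, DCN and LUM and the leukocyte markers PTPRC and CD3E had median levels of 0 CPM. Libraries also fell into 2 classes by the nuclear RNA MALAT1, at 174 to 282 CPM and 387 to 551 CPM. Vehicle and both single herbs lay wholly in the lower class, Soyo-san and Okbyeongpung-san wholly in the higher one, and Saengmaek-san and Guibi-tang in both. Within a group 1 library could stand apart from the other 2. The chi-square per degree of freedom between libraries was 16.18 and 13.25 for vehicle replicate 1 against its fellows and 3.086 between those. For Menthae Herba 20 replicate 3 it was 15.7 and 12.24, against 3.638 between the others. The part of the MALAT1 class in the differences from vehicle was tested only as a covariate, with its values given in the closing section.

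DNA replication is prepared in G1, when the origin recognition complex, CDC6 and CDT1 load the MCM2-7 helicase onto chromatin, a step called licensing. At the G1-S transition cyclin E with its kinase and the release of E2F factors from retinoblastoma proteins switch on a broad set of replication genes. In S phase CDC45 and the GINS complex turn MCM2-7 into an active helicase, polymerases copy the strands on the PCNA clamp, and ribonucleotide reductase, thymidylate synthase and thymidine kinase supply nucleotides. HepG2 cells proliferate in culture, in contrast to most hepatocytes of the adult liver.

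Menthae Herba at 500 µg/mL was accompanied by lower levels of nearly all of these genes. In a test of edgeR's quasi-likelihood model across all genes, 34 of the 37 genes were lower than in vehicle at an adjusted p under 0.05 and 1 was higher. Among all 16644 genes 20.0% were lower and 19.8% higher by the same rule. In 35 of the 37 genes all 3 Menthae Herba libraries lay below all 3 vehicle libraries, against 24.6% of all genes. The median log2 fold change was -0.42, with a range of -0.83 to 0.18, beside a median of 0 over all genes. The summed level of the 37 genes was 2856 ± 72.4 CPM at 500 µg/mL and 3827 ± 74.4 CPM in vehicle (SD, n = 3 each). Without vehicle replicate 1 the count was 34, all lower. These are bulk libraries, in which fewer cells in S phase and less RNA per cell cannot be told apart.

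**Figure D1:**
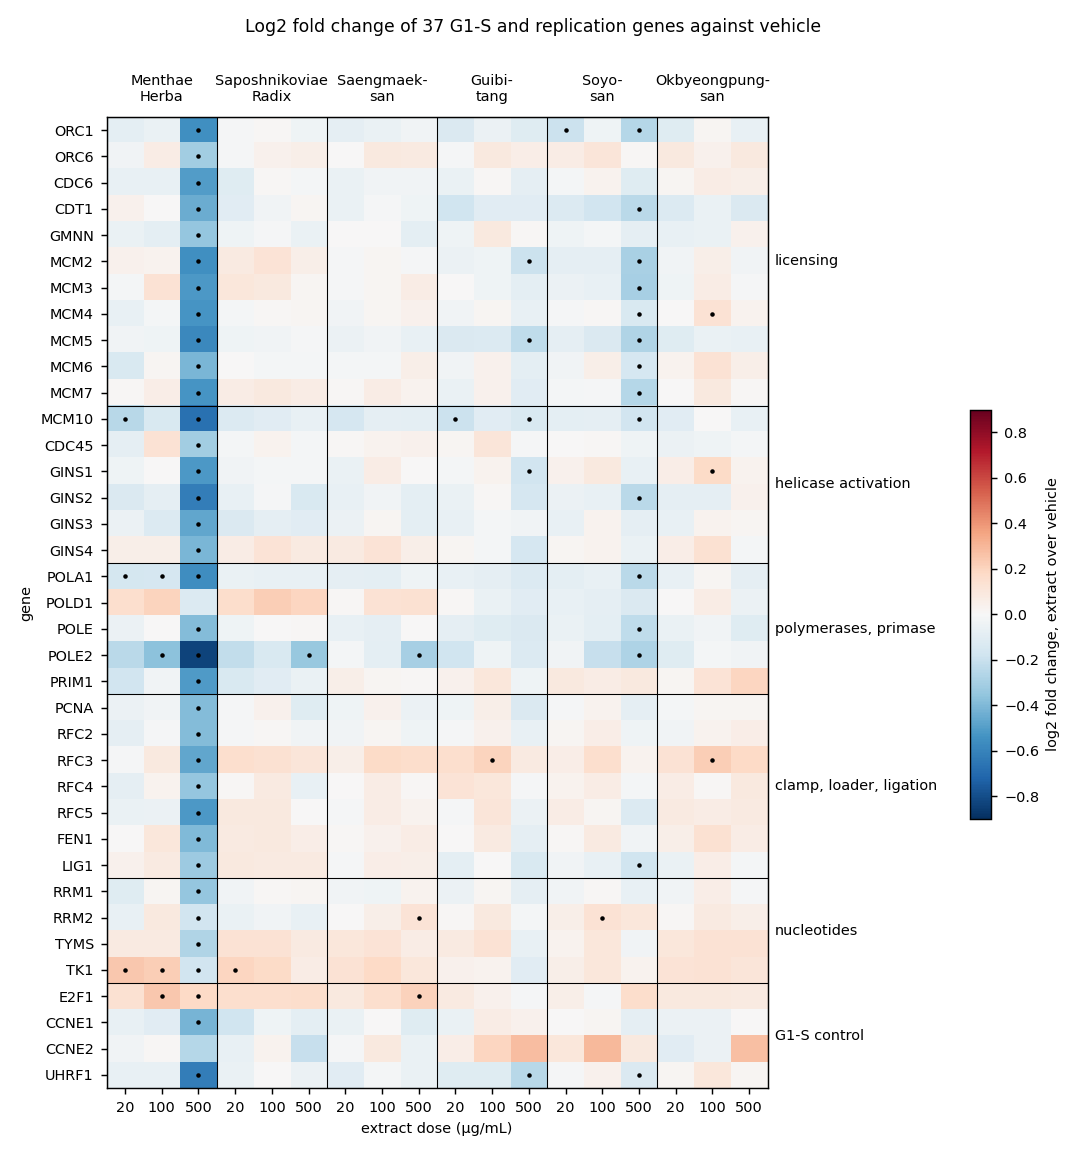
Log2 fold change of each of the 37 genes (rows, grouped by function) against vehicle for 6 extracts at 20, 100 and 500 µg/mL (columns), with a black dot where the adjusted p was under 0.05. The Menthae Herba 500 column is blue in 36 of 37 rows and the Soyo-san 500 column has 15 dots, 8 of them in licensing genes.

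All 11 licensing genes were lower with Menthae Herba at 500 µg/mL than in vehicle, with log2 fold changes between -0.58 and -0.31 and a median of -0.52. MCM5, a subunit of the MCM2-7 ring, had 123, 117 and 118 CPM with Menthae Herba, against 176, 182 and 177 CPM in vehicle. MCM2, another subunit of the ring, had 173, 150.3 and 161 CPM with Menthae Herba, against 221, 245 and 243 CPM in vehicle. The groups did not overlap for either gene, and the spread within a group was small beside the gap. By edgeR's test MCM5 had a log2 fold change of -0.58 ± 0.05 (SE, adjusted p = 4.02e-13) and MCM2 one of -0.55 ± 0.06 (SE, adjusted p = 4.36e-10). The other 4 MCM subunits, MCM3, MCM4, MCM6 and MCM7, had log2 fold changes of -0.52, -0.53, -0.41 and -0.53. ORC1, the largest subunit of the origin recognition complex, was at -0.55 and ORC6, a smaller subunit, at -0.31. The helicase loaders CDC6 and CDT1 were at -0.50 and -0.45, and GMNN (geminin), the inhibitor that binds CDT1, was lower as well, at -0.35.

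All 6 genes of helicase activation were lower, with log2 fold changes of -0.67 to -0.31. MCM10, which helps the assembled helicase to start unwinding, had 29.4, 29.1 and 30.2 CPM with Menthae Herba at 500 µg/mL, against 48.3, 46.9 and 45.8 CPM in vehicle. GINS2, one of the GINS subunits, had 37.7, 38.5 and 36.0 CPM with Menthae Herba, against 57.7, 58.3 and 56.7 CPM in vehicle. Both genes had libraries within 3 CPM of each other in a group and a wide gap between groups. Their log2 fold changes were -0.67 ± 0.05 (SE, adjusted p = 1.24e-15 by edgeR) and -0.62 ± 0.06 (SE, adjusted p = 3.87e-12 by edgeR). GINS1, GINS3 and GINS4, the other GINS subunits, were at -0.52, -0.47 and -0.41, and CDC45, their partner on the helicase, was at -0.31.

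Among the polymerase and primase genes 4 of 5 were lower. POLE2, the second subunit of leading-strand polymerase epsilon, had the lowest log2 fold change of the 37 genes. Its libraries held 6.72, 6.30 and 6.14 CPM with Menthae Herba at 500 µg/mL, against 12.8, 10.9 and 10.4 CPM in vehicle, so the groups did not overlap although vehicle replicate 1 lay above its fellows. The log2 fold change was -0.83 ± 0.11 (SE, adjusted p = 4.12e-09 by edgeR). POLA1, the catalytic subunit of polymerase alpha, had 34.3, 32.7 and 33.3 CPM with Menthae Herba, against 50.0, 48.8 and 49.1 CPM in vehicle, a log2 fold change of -0.56 ± 0.05 (SE, adjusted p = 4.93e-13 by edgeR). POLE, the catalytic subunit of polymerase epsilon, was at -0.39, and PRIM1, the catalytic primase subunit, at -0.51. POLD1, the catalytic subunit of polymerase delta, had 59.9, 55.2 and 55.9 CPM with Menthae Herba, against 56.2, 64.7 and 65.3 CPM in vehicle. Its groups overlapped, and its log2 fold change of -0.12 ± 0.08 (SE) did not pass the test (adjusted p = 0.266 by edgeR).

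All 7 genes of the clamp, its loader and Okazaki fragment joining were lower. RFC5, a subunit of the clamp loader, had 21.6, 20.7 and 20.6 CPM with Menthae Herba at 500 µg/mL, against 30.6, 29.6 and 30.1 CPM in vehicle. RFC3, another loader subunit, had 27.2, 26.3 and 28.1 CPM with Menthae Herba, against 41.9, 35.8 and 35.6 CPM in vehicle. The groups were apart for both, with 1 high vehicle library for RFC3. Log2 fold changes were -0.52 ± 0.06 for RFC5 (SE, adjusted p = 5.19e-10 by edgeR) and -0.47 ± 0.07 for RFC3 (SE, adjusted p = 3.4e-08 by edgeR). RFC2 and RFC4, also of the loader, were at -0.39 and -0.35, PCNA, the clamp, at -0.39, FEN1, the flap nuclease, at -0.40, and LIG1, the ligase that seals Okazaki fragments, at -0.33.

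The 4 nucleotide genes were lower too, with log2 fold changes of -0.35 to -0.17 and a median of -0.22. RRM1, the large subunit of ribonucleotide reductase, had 96.0, 86.9 and 93.2 CPM with Menthae Herba at 500 µg/mL, against 119, 119 and 114 CPM in vehicle. TYMS, which makes thymidylate, had 137, 132 and 128 CPM with Menthae Herba, against 159, 165 and 155 CPM in vehicle. Neither gene had overlapping groups, and the log2 fold changes were -0.35 ± 0.04 (SE, adjusted p = 2.99e-09 by edgeR) and -0.27 ± 0.05 (SE, adjusted p = 2.22e-05 by edgeR). RRM2, the small reductase subunit, and TK1, the thymidine salvage kinase, were both at -0.17, with adjusted p-values of 0.000804 and 0.0325 by edgeR. The TK1 call was lost in 5 of the 6 fits that left out 1 library, with adjusted p up to 0.19.

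The 4 G1-S control genes did not move together. UHRF1, which links replication to maintenance of DNA methylation, had 135, 129 and 131 CPM with Menthae Herba at 500 µg/mL, against 189.9, 211 and 208 CPM in vehicle. CCNE1, which encodes cyclin E1, had 26.7, 25.7 and 26.3 CPM with Menthae Herba, against 33.9, 35.4 and 35.8 CPM in vehicle. Both were clear of vehicle in all 3 libraries, with log2 fold changes of -0.62 ± 0.04 (SE, adjusted p = 6.59e-17 by edgeR) and -0.42 ± 0.07 (SE, adjusted p = 5.06e-07 by edgeR). CCNE2, which encodes cyclin E2, was listed at only 3.00 ± 0.113 CPM with Menthae Herba and 3.59 ± 0.408 CPM in vehicle (SD, n = 3 each), and its log2 fold change of -0.26 did not pass the test (adjusted p = 0.217 by edgeR). E2F1, an activating E2F transcription factor, was the gene that was higher. It had 86.2, 82.4 and 80.7 CPM with Menthae Herba, against 66.6, 73.6 and 79.5 CPM in vehicle. The Menthae Herba libraries lay just above a widely spread vehicle group, and the log2 fold change was 0.18 ± 0.07 (SE, adjusted p = 0.0209 by edgeR). Without vehicle replicate 1 it was 0.12 (adjusted p = 0.204), and without Menthae Herba 500 replicate 1 it was 0.16 (adjusted p = 0.0825), both by edgeR.

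Promoters of the 4 genes with the lowest log2 fold changes are shown because E2F factors act on replication genes through short promoter sites. Sequences are from RefSeq on GRCh38.p14, 250 bases before to 50 bases after an annotated start, written 5′ to 3′ on the gene's own strand. Capitals mark exact matches, on either strand, to the E2F words TTTCCCGC, TTTGGCGC, TTTCGCGC and TTTGCCGC, or to CCAAT, the box bound by NF-Y. The UHRF1 window is 1 of 3 listed starts. Reverse-strand matches read as the reverse complement, such as GCGGGAAA for TTTCCCGC.
POLE2, chr14:49688165-49688464, minus strand: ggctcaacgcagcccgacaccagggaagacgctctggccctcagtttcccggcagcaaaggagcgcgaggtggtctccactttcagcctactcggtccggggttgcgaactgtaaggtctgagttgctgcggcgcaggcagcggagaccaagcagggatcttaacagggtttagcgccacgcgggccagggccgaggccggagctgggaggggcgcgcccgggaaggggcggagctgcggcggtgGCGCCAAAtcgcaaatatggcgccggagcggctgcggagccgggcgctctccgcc
MCM10, chr10:13161308-13161607, plus strand: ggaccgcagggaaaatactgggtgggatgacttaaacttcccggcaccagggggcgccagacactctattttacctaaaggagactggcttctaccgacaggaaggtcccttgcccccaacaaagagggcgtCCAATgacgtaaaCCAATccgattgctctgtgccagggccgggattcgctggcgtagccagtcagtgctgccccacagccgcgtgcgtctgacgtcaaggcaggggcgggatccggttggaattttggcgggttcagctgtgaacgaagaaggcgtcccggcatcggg
GINS2, chr16:85688905-85689204, minus strand: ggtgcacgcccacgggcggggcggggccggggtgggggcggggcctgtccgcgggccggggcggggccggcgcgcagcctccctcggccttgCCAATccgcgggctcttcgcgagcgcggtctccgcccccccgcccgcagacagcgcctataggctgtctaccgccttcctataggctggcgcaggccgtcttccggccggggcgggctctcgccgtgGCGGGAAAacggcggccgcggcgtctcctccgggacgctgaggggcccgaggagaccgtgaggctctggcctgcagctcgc
UHRF1, chr19:4909251-4909550, plus strand: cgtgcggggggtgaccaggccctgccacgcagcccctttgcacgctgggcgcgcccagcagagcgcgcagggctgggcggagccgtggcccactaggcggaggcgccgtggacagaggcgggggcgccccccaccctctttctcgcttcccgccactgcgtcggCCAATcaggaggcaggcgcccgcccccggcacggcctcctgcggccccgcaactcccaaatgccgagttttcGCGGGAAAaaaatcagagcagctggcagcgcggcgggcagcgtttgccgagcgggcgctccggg

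The E2F word lay at bases -5 to 3 around the start in POLE2, at -31 to -24 in GINS2 and at -14 to -7 in UHRF1. The MCM10 window held 2 CCAAT boxes and none of the 4 E2F words. It did hold tttggcgg, which differs from TTTGGCGC only in its last base. Near matches of this kind were not counted, so MCM10 stands among the genes without an E2F word below. RefSeq promoters were matched for 33 of the 37 genes (all but MCM4, MCM5, GINS4 and CCNE2), with 44 starts in all. An E2F word was found in 20 of these 44 promoters (45.5%), against 3.3% of all 35116 promoters of the same length, and a CCAAT box in 61.4% against 34.6%. The promoters of the further replication genes held an E2F word in 28.3% and a CCAAT box in 47.8%, and those of the G2 and mitosis genes in 13.6% and 90.9%. By function, an E2F word was in 7 of 12 promoters of licensing genes, 3 of 7 of helicase activation, 3 of 6 of polymerases, 3 of 8 of the clamp group, 1 of 6 of nucleotide genes and 3 of 5 of G1-S control. The 19 genes with an E2F word in at least 1 promoter had a median log2 fold change of -0.47 with Menthae Herba at 500 µg/mL, against -0.37 for the 14 without. Both groups spanned wide ranges, -0.83 to 0.18 with the word and -0.67 to -0.12 without. A split by CCAAT box gave a similar gap, with a median of -0.50 for 21 genes with the box and -0.41 for 12 without. Word matches describe these letters only, and binding was not measured. In GENCODE v29, also on GRCh38, the genes themselves span chr14:49643555-49688422 (POLE2), chr10:13161554-13211104 (MCM10), chr16:85676198-85690073 (GINS2) and chr19:4903080-4962154 (UHRF1). An exon of GINS2 overlaps another gene on the opposite strand, as is so for 13 of the 37 genes, and 4 overlap one on the same strand. Whether counting used strand is not given in the sources used here, so reads of such pairs may not have been told apart.

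At the lower Menthae Herba doses few of the 37 genes differed from vehicle. The summed level of the 37 genes was 3827 ± 74.4 CPM in vehicle, 3762 ± 87.0 CPM at 20 µg/mL, 3908 ± 32.5 CPM at 100 µg/mL and 2856 ± 72.4 CPM at 500 µg/mL (SD, n = 3 each). Of the 37 genes, 36 had their lowest group mean at 500 µg/mL, as did 34.6% of all genes. A mean that dropped at each step of vehicle, 20, 100 and 500 µg/mL was seen in 8 of 37 genes, below the 25.6% of all genes.

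At 100 µg/mL 4 of the 37 genes differed from vehicle, against 14.0% of all genes. POLA1 and POLE2 were lower, at -0.15 and -0.37, and TK1 and E2F1 were higher, at 0.22 and 0.24. At 20 µg/mL 3 genes differed, against 6.83% of all genes, with MCM10 and POLA1 lower at -0.25 and -0.16 and TK1 higher at 0.24. Leaving out any 1 library gave counts of 0 to 3 at 100 µg/mL and 1 to 3 at 20 µg/mL, lowest without vehicle replicate 1 at both doses and also without Menthae Herba 20 replicate 1 at 20 µg/mL. TK1 had 86.0 ± 5.09 CPM in vehicle, 102 ± 4.92 CPM at 20 µg/mL, 100.2 ± 5.11 CPM at 100 µg/mL and 76.7 ± 1.79 CPM at 500 µg/mL (SD, n = 3 each), above vehicle at both lower doses and below it at the highest.

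**Figure D2:**
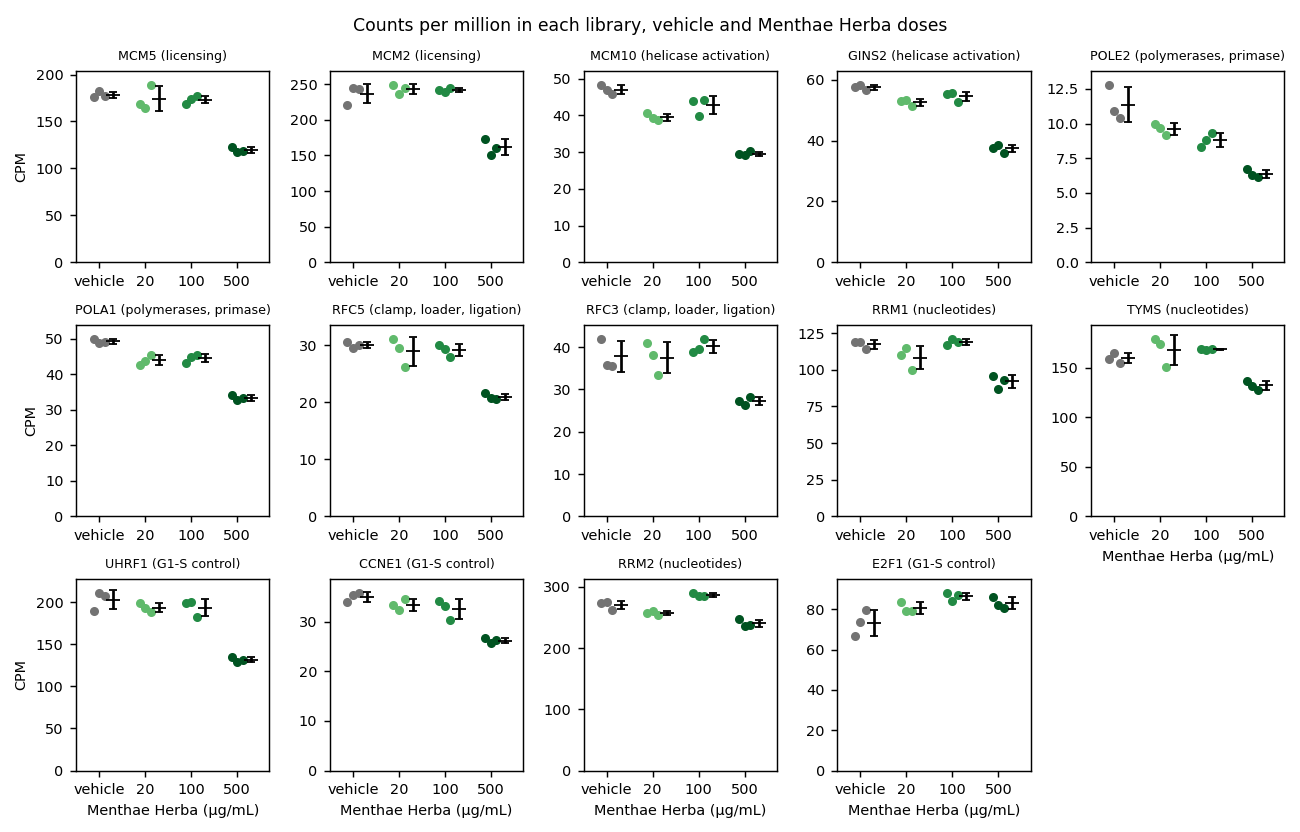
CPM of each library (points) with the mean and SD of 3 libraries (black bars) for 14 genes in vehicle and at 20, 100 and 500 µg/mL of Menthae Herba. In 13 panels the 500 µg/mL points lie below all others; the E2F1 panel shows no fall, with 80.7 to 86.2 CPM at 500 µg/mL.

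Within Menthae Herba, where vehicle does not enter, 34 of 37 genes were lower at 500 than at 20 µg/mL and none was higher, against 15.8% of all genes lower. In 36 of the 37 genes all 3 libraries at 500 µg/mL lay below all 3 at 20 µg/mL, as in 21.6% of all genes. The median log2 fold change was -0.40, with licensing genes at -0.46, helicase activation at -0.44, the clamp group at -0.37, polymerases at -0.35, and nucleotides and G1-S control at -0.29 each. Without Menthae Herba 20 replicate 3 the count was 34 as well. MCM2 (-0.59), POLE2 (-0.59), UHRF1 (-0.56), MCM5 (-0.55) and MCM7 (-0.54) had the lowest values. POLD1, which did not pass against vehicle, was at -0.27 ± 0.08 (SE, adjusted p = 0.0103 by edgeR). TK1 was at -0.41 ± 0.06 (SE, adjusted p = 6.02e-07 by edgeR).

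The 3 genes that did not pass in this step were RRM2, CCNE2 and E2F1. RRM2 had 247, 237 and 238 CPM at 500 µg/mL, against 257, 260.3 and 254 CPM at 20 µg/mL. Its groups were apart, but the log2 fold change of -0.10 ± 0.04 (SE) missed the threshold (adjusted p = 0.0701 by edgeR). E2F1 had 86.2, 82.4 and 80.7 CPM at 500 µg/mL, against 83.9, 79.0 and 79.2 CPM at 20 µg/mL, groups that overlapped (adjusted p = 0.677 by edgeR).

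Soyo-san at 500 µg/mL was the other treatment with many lower genes. Against vehicle 15 of the 37 were lower and none higher, beside 11.4% of all genes lower. All 3 Soyo-san libraries lay below all 3 vehicle libraries in 18 genes, against 18.2% of all genes. The median log2 fold change over the 37 was -0.08, much closer to the 0.01 of all genes than with Menthae Herba. Licensing genes made up 8 of the 15, namely ORC1, CDT1 and the 6 MCM2-7 subunits, out of 11 tested. MCM10 and GINS2 of the helicase group, POLA1, POLE and POLE2 of the polymerases, LIG1 and UHRF1 made up the rest. None of the 4 nucleotide genes passed in either direction.

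MCM3, a ring subunit, had 291, 286 and 284 CPM with Soyo-san at 500 µg/mL, against 349.8, 361 and 352 CPM in vehicle. MCM7, also of the ring, had 235, 232 and 227 CPM with Soyo-san, against 259.5, 289.7 and 281 CPM in vehicle. Neither gene overlapped between groups, and the log2 fold changes were -0.30 ± 0.05 (SE, adjusted p = 3.54e-06 by edgeR) and -0.26 ± 0.05 (SE, adjusted p = 6.4e-05 by edgeR). PCNA (288, 281 and 281 CPM with Soyo-san, against 297, 300.2 and 303 CPM in vehicle) was below vehicle in all libraries but did not pass, with a log2 fold change of -0.08 (adjusted p = 0.36 by edgeR).

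Within Soyo-san 8 genes were lower at 500 than at 20 µg/mL, against 3.34% of all genes, and all 3 libraries lay below in 17 genes, against 13.3% of all genes. They were MCM2, MCM3, MCM4, MCM5, MCM7, POLA1, POLE and RFC5, at log2 fold changes of -0.25 to -0.13. MCM3 had 291, 286 and 284 CPM at 500 µg/mL, against 345, 344 and 337 CPM at 20 µg/mL, and MCM7 had 235, 232 and 227 CPM at 500 µg/mL, against 277, 274 and 269 CPM at 20 µg/mL. Both were apart in all libraries, at -0.25 ± 0.05 (SE, adjusted p = 0.000197 by edgeR) and -0.24 ± 0.05 (SE, adjusted p = 0.000405 by edgeR). The count of 8 fell to between 2 and 5 when any 1 of the 6 libraries was left out, and to 3 without the filter on low counts, while MCM3 and MCM7 passed in each of those fits.

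**Figure D3:**
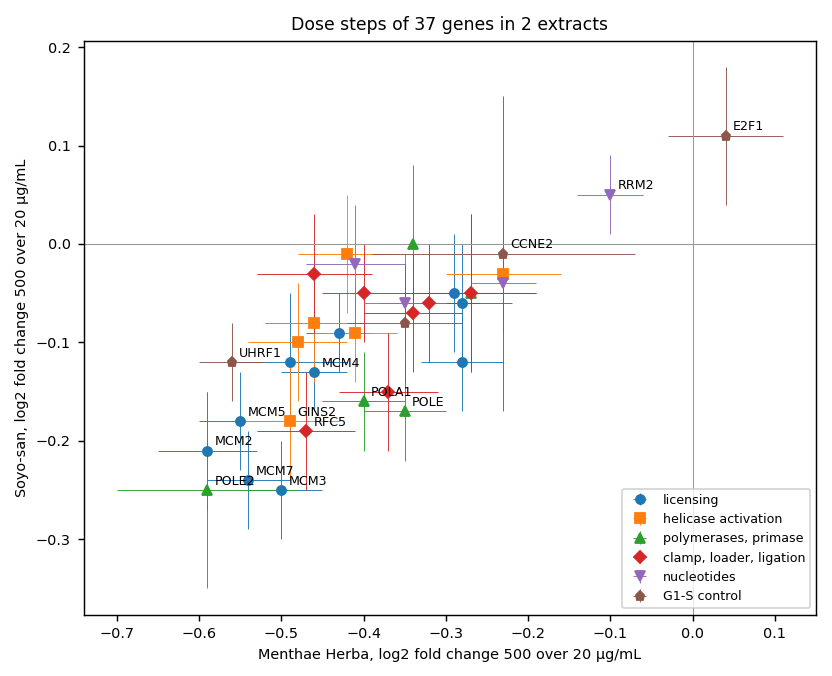
Log2 fold change of 500 over 20 µg/mL for each of the 37 genes in Menthae Herba (horizontal axis) and Soyo-san (vertical axis), with standard errors as bars and function groups by symbol. The points run from MCM2 at -0.59 and -0.21 to E2F1 at 0.04 and 0.11.

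Across the 37 genes the Menthae Herba and Soyo-san dose steps had a Pearson correlation of 0.78 and a Spearman correlation of 0.72. The 2 steps share no library, but they share the genes' depth and the fitted spread, and genes are not independent replicates. The same correlation of Menthae Herba with the other 4 extracts was 0.06 to 0.36 (Pearson).

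Guibi-tang at 500 µg/mL had 5 lower genes and no higher one, against 6.72% of all genes lower, with a median log2 fold change of -0.09. UHRF1 had 178, 165 and 170.2 CPM with Guibi-tang, against 189.9, 211 and 208 CPM in vehicle, and MCM5 had 155, 157 and 142 CPM, against 176, 182 and 177 CPM in vehicle. Both lay below vehicle in all libraries, at -0.25 ± 0.04 (SE, adjusted p = 5.05e-05 by edgeR) and -0.23 ± 0.05 (SE, adjusted p = 0.00134 by edgeR). MCM2, MCM10 and GINS1 were at -0.19, -0.14 and -0.17. The count was 2 or 3 in 5 of the 6 fits that left out 1 library (all but the one without Guibi-tang 500 replicate 1) and 3 without the filter on low counts. At 100 µg/mL 1 gene passed, RFC3 at 0.20, against 7.96% of all genes, and at 20 µg/mL 1, MCM10 at -0.19, against 4.38%. Within Guibi-tang, 500 against 20 µg/mL gave 1 gene, UHRF1 at -0.14, against 8.12% of all genes. That count ran from 0 to 3 when 1 library was left out, and of those 6 fits only the one without Guibi-tang 500 replicate 1 called UHRF1. The higher MALAT1 class held 1 of 3 libraries at 500 µg/mL and 2 of 3 at 20 µg/mL. With the class as a covariate 8 genes were lower, in a fit whose share of all genes is not given here. The single calls at 100 and 20 µg/mL were lost in 4 of 6 fits each that left out 1 library.

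Saengmaek-san at 500 µg/mL differed from vehicle in 3 of the 37 genes, against 12.6% of all genes, and 2 of them were higher. RRM2 had 289, 294 and 300.2 CPM with Saengmaek-san, against 273, 275 and 263 CPM in vehicle. E2F1 had 89.5, 83.0 and 80.5 CPM with Saengmaek-san, against 66.6, 73.6 and 79.5 CPM in vehicle. POLE2 had 9.36, 8.28 and 10.1 CPM with Saengmaek-san, against 12.8, 10.9 and 10.4 CPM in vehicle. None of the 3 overlapped, though the margin was under 1 CPM for POLE2 and 1 CPM for E2F1. Log2 fold changes were 0.12 ± 0.04 for RRM2, 0.21 ± 0.07 for E2F1 and -0.30 ± 0.10 for POLE2 (SE), with edgeR's adjusted p at 0.0357, 0.0284 and 0.0377. Leaving out any 1 of the 6 libraries gave a count of 1 or 2. No gene of the 37 passed at 100 µg/mL (6.05% of all genes), at 20 µg/mL (3.37%) or for 500 against 20 µg/mL (1.96%) by edgeR. At an unadjusted p under 0.05 by edgeR there were 5, 3 and 2 genes, a rule whose share of all genes is not given here. DESeq2 gave counts of 0, 1 and 1 in these 3 comparisons.

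With Saposhnikoviae Radix and Okbyeongpung-san few of the 37 genes passed against vehicle. With Saposhnikoviae Radix 1 gene passed at 500 µg/mL, POLE2 at -0.34 (5.80% of all genes passed), and 1 at 20 µg/mL, TK1 at 0.19 (7.19% of all genes). POLE2 was lost in 3 of 6 fits, those lacking vehicle replicate 1 or replicate 2 or 3 of the extract, and TK1 in 5 of the 6 fits that left out 1 library (all but the one without vehicle replicate 2). None passed at 100 µg/mL (5.47% of all genes) or for 500 against 20 µg/mL (0.397%) by edgeR, and DESeq2 gave 0 and 0. At an unadjusted p under 0.05 by edgeR there were 7 and 2 genes, again without a share of all genes. Okbyeongpung-san at 100 µg/mL had 3 higher genes, MCM4 at 0.13, GINS1 at 0.17 and RFC3 at 0.22, against 12.9% of all genes. Leaving out any 1 of the 6 libraries left 0 to 2 of these calls. By edgeR it had none at 500 µg/mL (9.11% of all genes), at 20 µg/mL (6.99%) or for 500 against 20 µg/mL (0.0240%). DESeq2 gave 0, 0 and 0. At an unadjusted p under 0.05 by edgeR there were 4, 3 and 2 genes, also without a share of all genes. All Okbyeongpung-san libraries were in the higher MALAT1 class and all vehicle libraries in the lower one. With the class as a covariate the counts against vehicle were 5 at 20 µg/mL (4 higher), 9 at 100 µg/mL (all higher) and 5 at 500 µg/mL (all higher). The share of all genes called in that fit is not given here, so these counts have no background beside them. Soyo-san at its lower doses gave RRM2 at 0.13 for 100 µg/mL (8.31% of all genes) and ORC1 at -0.19 for 20 µg/mL (3.88%). Without 1 library RRM2 was lost in all 6 fits and ORC1 in 5 of 6. All comparisons with vehicle use the same 3 vehicle libraries, so a gene such as POLE2, E2F1 or TK1 that passes in several of them rests on the same vehicle values.

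**Figure D4:**
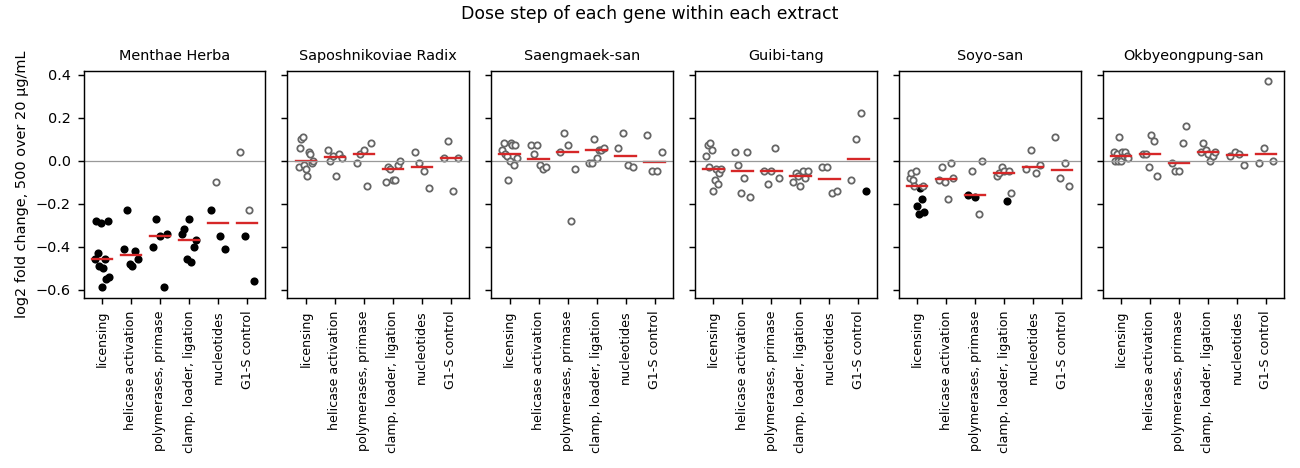
Log2 fold change of 500 over 20 µg/mL for each of the 37 genes by function group in 6 extracts; filled points had an adjusted p under 0.05 and red lines are group medians. Filled points number 34 with Menthae Herba, 8 with Soyo-san, 1 with Guibi-tang and 0 in the other 3 extracts.

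The difference between dose steps was tested directly. The Menthae Herba step was lower than the Saposhnikoviae Radix step in 31 of 37 genes (9.99% of all genes), than the Saengmaek-san step in 32 (6.61%), than the Guibi-tang step in 29 (8.57%), than the Soyo-san step in 24 (3.02%) and than the Okbyeongpung-san step in 33 (10.7%). No gene had a step that was higher in Menthae Herba by this test. UHRF1 passed in all 5, with differences of -0.56, -0.59, -0.42, -0.43 and -0.56 on the log2 scale in that order. MCM3 passed in all 5 too, at -0.43, -0.59, -0.41, -0.25 and -0.54. The 13 that did not pass against Soyo-san were E2F1, RRM2, POLD1, CCNE2, RFC4, POLE, POLE2, LIG1, CDC45, ORC6, MCM6, GMNN and CCNE1. Menthae Herba at 500 µg/mL held the lowest of 19 group means in 35 of the 37 genes, as it did in 21.9% of all genes. The exceptions were E2F1, lowest with Soyo-san at 100 µg/mL, and POLD1, lowest with Soyo-san at 500 µg/mL.

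Other genes of replication and the cell cycle were measured beside the 37. Of 44 further replication genes 35 were lower with Menthae Herba at 500 µg/mL than in vehicle and 4 higher, with a median log2 fold change of -0.35. Over all genes in this comparison 20.0% were lower and 19.8% higher. DBF4, the activator of the CDC7 kinase that fires origins, had 19.6, 19.1 and 20.5 CPM, against 41.0, 34.6 and 32.5 CPM in vehicle. TICRR, which helps to load CDC45, had 46.5, 42.6 and 42.2 CPM, against 73.6, 73.5 and 76.5 CPM in vehicle. Both were well below vehicle in all libraries, at -0.87 ± 0.08 (SE, adjusted p = 6.74e-14 by edgeR) and -0.77 ± 0.07 (SE, adjusted p = 3.01e-13 by edgeR).

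Subunits of polymerase delta differed in direction. POLD3, an accessory subunit, had 11.6, 12.9 and 13.8 CPM with Menthae Herba at 500 µg/mL, against 20.8, 18.3 and 21.4 CPM in vehicle, a log2 fold change of -0.66 ± 0.07 (SE, adjusted p = 1.57e-10 by edgeR). POLD4, the smallest subunit, had 12.8, 10.6 and 12.7 CPM with Menthae Herba, against 6.28, 6.99 and 8.23 CPM in vehicle, a log2 fold change of 0.76 ± 0.14 (SE, adjusted p = 2.14e-05 by edgeR). POLD3 was below and POLD4 above vehicle in all libraries. The 3 other higher genes, named after their values were seen, were POLE4, a small polymerase epsilon subunit (0.30), DUT, the dUTPase (0.29), and RRM2B, a reductase subunit induced by p53 (0.23).

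Of 27 further G1 control genes 18 were lower with Menthae Herba at 500 µg/mL and 1 was higher, with a median of -0.26, beside the same 20.0% lower and 19.8% higher over all genes. SKP2, which directs the CDK inhibitor p27 to degradation, had 47.6, 45.9 and 46.0 CPM, against 86.4, 85.0 and 88.2 CPM in vehicle, a log2 fold change of -0.90 ± 0.05 (SE, adjusted p = 1.3e-21 by edgeR). E2F8, a repressive E2F (-0.78), FBXO5, an inhibitor of the anaphase-promoting complex (-0.66), and CDKN2C, the CDK4 and CDK6 inhibitor p18 (-0.65), were next. The higher gene was CDKN1A, the CDK inhibitor p21, named after its values were seen. It had 111, 126 and 114 CPM, against 81.1, 92.7 and 87.5 CPM in vehicle, groups that did not overlap, with a log2 fold change of 0.43 ± 0.06 (SE, adjusted p = 2.73e-08 by edgeR).

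All 25 G2 and mitosis genes were lower, against 20.0% of all genes, with a median log2 fold change of -0.74 and a range of -0.97 to -0.33. KIF20A, a kinesin of cytokinesis, had 42.2, 46.6 and 43.3 CPM with Menthae Herba, against 86.2, 86.6 and 85.4 CPM in vehicle (-0.97 ± 0.05, SE, adjusted p = 3.62e-24 by edgeR). CENPE, a kinetochore kinesin, was at -0.91, and PLK1 and MKI67, a mitotic kinase and a proliferation marker, were at -0.97 and -0.94. With Soyo-san at 500 µg/mL the counts of lower genes were 16 of 44 further replication genes, 12 of 27 G1 control genes and 17 of 25 G2 and mitosis genes, against 11.4% of all genes. In these lists 2, 0 and 0 genes were higher. With Guibi-tang at 500 µg/mL 8, 6 and 18 genes were lower, against 6.72% of all genes, and 1, 1 and 0 were higher.

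**Figure D5:**
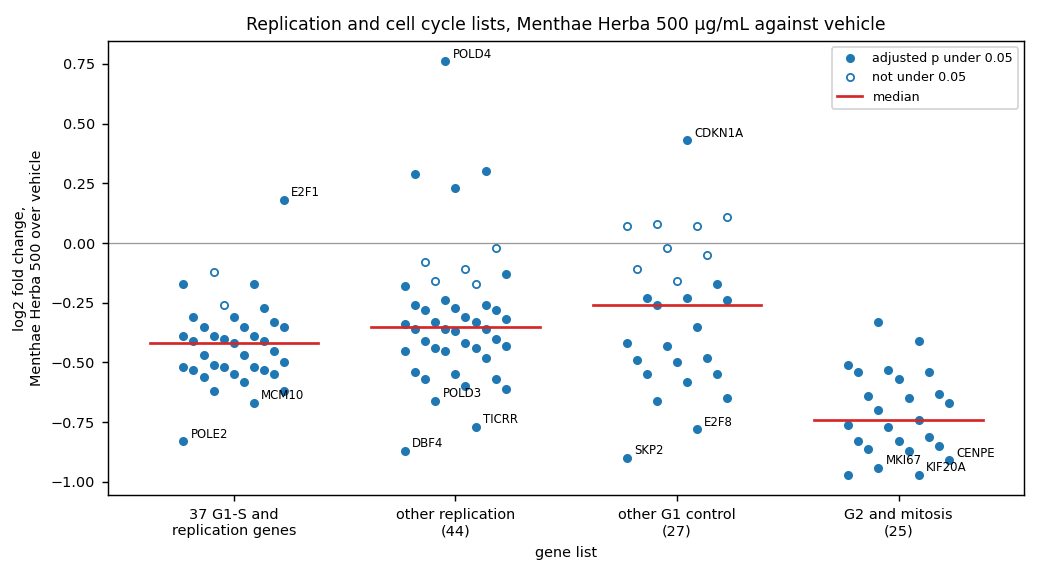
Log2 fold change of Menthae Herba 500 µg/mL over vehicle for the 37 genes and 3 further lists, with filled points at an adjusted p under 0.05 and red lines at the medians of -0.42, -0.35, -0.26 and -0.74. POLD4, CDKN1A and E2F1 are among the few points above 0.

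In the Soshiho-tang libraries, with 1 sample per dose and so no replicate check, the summed level of the 37 genes was 3859 CPM at 20 µg/mL, 3999 CPM at 100 µg/mL and 3756 CPM at 500 µg/mL. The log2 ratio of 500 over 20 µg/mL had a median of -0.04 and a range of -0.30 to 0.31, beside a median of -0.003 over the 9494 genes of at least 10 CPM. The value of 0.31 was that of CCNE2, at 4.04 CPM at 500 µg/mL and 3.24 CPM at 20 µg/mL, under that minimum. Of the 36 genes of the 37 with at least 10 CPM, 0 were past 1.25-fold lower or higher, against 2.6% of the 9494 genes lower. The share of those genes higher is not given here.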

How the data were processed

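RNA-seq counts were analysed for 60 HepG2 libraries: 57 in 19 groups of 3, and 3 of Soshiho-tang. The authors deposited 1 table of RSEM expected counts per Ensembl gene. The submitters' processing notes name FastQC 0.11.9, Trim Galore 0.6.5, STAR 2.7.3a, RSEM 1.3.3 and GRCh38. Which annotation was counted, with what settings and with or without strand, is not given here by any source. RSEM shares reads between similar genes, and 13 of the 37 genes had any fractional count. Values were fractional in 100% of libraries for UHRF1 and RFC5 and in 98.3% for ORC6, GINS3, GINS4, TYMS and CCNE2. The share was 91.7% for MCM7 and 1.67% to 30% for the rest of the 13.

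Symbols came from the reference tables by Ensembl identifier. Expected counts were rounded to whole numbers, genes were kept with filterByExpr (minimum count 10, by group), and libraries were scaled by TMM. Levels are CPM on these scaled totals, and a count of 3 equals 0.0926 to 0.147 CPM over the 60 libraries, a limit from counting error only. The quasi-likelihood F test of edgeR 4.0.16 (R 4.3.3) was fitted to all 57 libraries. It had 29 contrasts, with Benjamini-Hochberg adjustment over 16644 genes in each. The threshold was an adjusted p of 0.05, and standard errors are the absolute log2 fold change over the square root of F. Fits were tested on simulated data. DESeq2 1.42.0 was an alternative, as were RLE scaling, no filter, a replicate block, a MALAT1 class covariate, leaving out each library, and fits restricted to the groups of 1 comparison.

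The genes, the further lists and the tests were chosen with earlier results of these data known. Genes shown in each library are the 2 with the largest fold change per function group with Menthae Herba at 500 µg/mL, those going the opposite way to most, and up to 4 per further list; MCM3, MCM7, RRM2, PCNA, POLD1 and others outside this rule were chosen after their values were seen. Replicate pairs differed beyond sampling noise in all 57 pairs (chi-square per degree of freedom 2.219 to 18.25). Correlations of deviations between libraries of the same replicate number were -0.14 to 0.10 across 18 comparisons with vehicle and -0.07 to 0.20 across 6 dose steps. By these correlations replicate numbers did not pair the libraries. In Saengmaek-san and Guibi-tang, however, every replicate 1 library was in the lower MALAT1 class and every replicate 3 library in the higher one. Replicate number and class were thus linked in those extracts, whose dose steps were tested without pairing. Promoters were RefSeq windows on GRCh38.p14.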

Additional observations from a re-analysis of the deposited data

Results flagged for a closer look

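Dose steps differed between extracts when the difference itself was tested with edgeR. The Menthae Herba step, 500 over 20 µg/mL, was lower than that of Saposhnikoviae Radix in 31 of the 37 genes, than that of Saengmaek-san in 32, than that of Guibi-tang in 29, than that of Soyo-san in 24 and than that of Okbyeongpung-san in 33. Over all genes the shares lower were 9.99%, 6.61%, 8.57%, 3.02% and 10.7% in that order. Leaving out 1 library at a time gave counts of 28 to 32, 29 to 32, 24 to 31, 19 to 23 and 30 to 34 in the same order. The Saposhnikoviae Radix step shares the code number and the MALAT1 class of the Menthae Herba step, so neither differed between the groups of that contrast.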

How the results depend on the processing

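No call on a named gene changed direction under any alternative. The counts for Menthae Herba at 500 µg/mL against vehicle (35) and against 20 µg/mL (34), for the 5 differences of dose steps, and for Soyo-san at 500 µg/mL against vehicle (15) stayed within 1.5 times their value throughout; the small counts did not. No value shows why the counts that follow moved, and the cause was not tested. Replicate numbers did not pair the libraries by the correlations of deviations, though they were linked to the MALAT1 class in Saengmaek-san and Guibi-tang. With a replicate block the count for Guibi-tang 500 against 20 was 2, and no other count moved by over 1.5 times. Without the filter on low counts, the counts were 1 for Saposhnikoviae Radix 100, 3 for Guibi-tang 500, 1 for Okbyeongpung-san 100 and 0 for Guibi-tang 100 and 20 and Soyo-san 100 and 20, all against vehicle, and 0 for Guibi-tang and 3 for Soyo-san at 500 against 20. Fits to only the groups compared gave 3 for Guibi-tang 500 and 2 for Saposhnikoviae Radix 100, and 0 for Menthae Herba 20, Saengmaek-san 500, Saposhnikoviae Radix 500, Guibi-tang 100 and 20, Soyo-san 100 and 20 and Okbyeongpung-san 100, all against vehicle, and 0 for Guibi-tang 500 against 20. DESeq2 gave 5 for Menthae Herba 20, 2 for Saposhnikoviae Radix 20 and 1 for Saengmaek-san 20, all against vehicle, and 1 for Saengmaek-san and 2 for Guibi-tang at 500 against 20. With the MALAT1 class as a covariate, the counts against vehicle were 7 for Menthae Herba 100, 2 for Saposhnikoviae Radix at each dose, 3 for Saengmaek-san 100, 1 for Saengmaek-san 20, 0 for Guibi-tang 100, 2 for Soyo-san 100, and 5, 9 and 5 for Okbyeongpung-san 500, 100 and 20. At 500 against 20 they were 1 for Saengmaek-san and 8 for Guibi-tang. In that fit Soyo-san 500 gave 10 against vehicle and 10 against 20, with 8 shared with the reported genes in each. Shares of all genes called in the alternative fits are not given here.

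Leaving out 1 library at a time, counts against vehicle ran from 0 to 3 for Menthae Herba 100 and 1 to 3 for 20. They ran from 0 to 2 for Saposhnikoviae Radix 500 and 0 to 2 for 20. For Saengmaek-san they ran from 1 to 2 at 500 and 0 to 1 at 100. For Guibi-tang they ran from 2 to 5 at 500, 0 to 2 at 100 and 0 to 1 at 20, and for Soyo-san from 0 to 1 at both 100 and 20. For Okbyeongpung-san they ran from 0 to 2 at 500 and 0 to 2 at 100. At 500 against 20 they ran from 0 to 1 for Saengmaek-san, 0 to 3 for Guibi-tang and 2 to 5 for Soyo-san (lowest without Soyo-san 20 replicate 1). Of 2682 such fits of single genes 290 lost the call, as did 38 of 298 without the filter, 33 with only the groups compared, 16 with the class covariate, 1 with the block and 0 with RLE scaling or DESeq2. CCNE2 and POLE2, with few counts, had the widest errors. No scaling moved the median of all genes by over 0.01.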
